A study of Mus musculus with 4 samples.

Results

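The V1 sector subunits of the vacuolar proton pump (V-ATPase) were examined in mouse inguinal fat, a white depot under the skin. The 8 genes were chosen by name as subunit genes of the cytosolic sector: Atp6v1a, Atp6v1b2, Atp6v1c1, Atp6v1d, Atp6v1e1, Atp6v1f, Atp6v1g1 and Atp6v1h. Other isoform genes of the sector are given separately. The choice was made with earlier results of these data known, so counts of members beside shares of all genes only describe the list. All 8 had a value among the 13677 genes in each library, and no filter on low values was applied. RNA sequencing had been done on 2 wildtype (WT) libraries and 2 libraries labelled FLCNKO, an adipose knockout of Flcn, which encodes folliculin. The labels give neither the strain, age and sex of the animals nor the driver of the knockout, and none says that the libraries of a group came from separate animals, so the p-values reflect differences between libraries that may be technical. Values are the deposited log2 expression values, which are not per length, so they are compared between libraries and not between genes unless a length scale is named.

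The V-ATPase moves protons into lysosomes and other organelles. Its V1 sector lies on the cytosolic face and splits ATP, and its V0 sector crosses the membrane and carries the protons. In V1, subunits A and B alternate in a ring that holds the ATP sites, subunits D and F form the central shaft that turns inside the ring, and subunits E and G form the outer stalks that hold the ring still. Subunits C and H sit where V1 meets V0, and V1 can come off V0 and return, which switches the pump. The pump also takes part in amino acid sensing at the lysosome, where it contacts the Ragulator and Rag GTPases that folliculin acts on, and V-ATPase genes are known targets of the MiT/TFE transcription factors.

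Flcn, the gene targeted, had overlapping log2 values of 12.36 and 12.21 in WT and of 12.35 and 12.12 in FLCNKO, a difference of -0.05 ± 0.13 (SE, n = 2 per group; limma adjusted p = 0.852) that was 0.06 without FLCNKO replicate 2 and 0.02 without WT replicate 1. Which exons were removed and which cell types keep the gene are not stated, so this value does not check the labels, and groups are named as labelled. The adipocyte marker Adipoq was abundant in all, at 18.31 and 18.17 in WT and 17.72 and 17.85 in FLCNKO (limma adjusted p = 0.185). The median of skeletal muscle markers was lower in replicate 2 than in replicate 1 of both groups. It was 12.89 and 9.85 in WT and 12.01 and 5.21 in FLCNKO, lowest in FLCNKO replicate 2.

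All 8 V1 genes had higher values in both FLCNKO libraries than in both WT libraries, and 3 of them passed the test across all genes: Atp6v1e1 of the outer stalk, Atp6v1h at the junction with V0 and Atp6v1a, the catalytic subunit. These 3 rose by 0.87 to 0.99 on the log2 scale, close to a doubling. Over all genes 0.98% were called higher (limma, Benjamini-Hochberg adjusted p under 0.05) and 29.2% had both FLCNKO values above both WT values. At an unadjusted p under 0.05, 7 of the 8 were higher and 0 lower, against 12.1% of all genes higher and 10.3% lower. The median log2 difference of the 8 genes was 0.55, and that of all genes 0.0046. V1 genes are abundant transcripts, and among the 3601 genes with a mean of at least 12 the same fit called 1.72% higher, with 32.4% not overlapping in that direction.

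The same 3 members were called with robust moderation and with a replicate block (1 residual degree of freedom), but not in every fit. Leaving out 1 library leaves a group of 1, whose spread is then assumed to be that of the other group, with 1 residual degree of freedom. Only the effect sizes of such fits are read. Without the trend of variance on expression limma called 0 genes of the tables and 0 members. In that fit 7 members had an unadjusted p under 0.05, against 2702 of all 13677 genes in either direction. The differences stayed above 0 for all 8 members with any 1 library left out. That follows from groups that did not overlap in any member, so it is no further support. Dropping the trend does not change a difference. An exact permutation test of 2 against 2 libraries cannot give a two-sided p below 0.333, so no single gene can be tested that way.

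**Figure D1:**
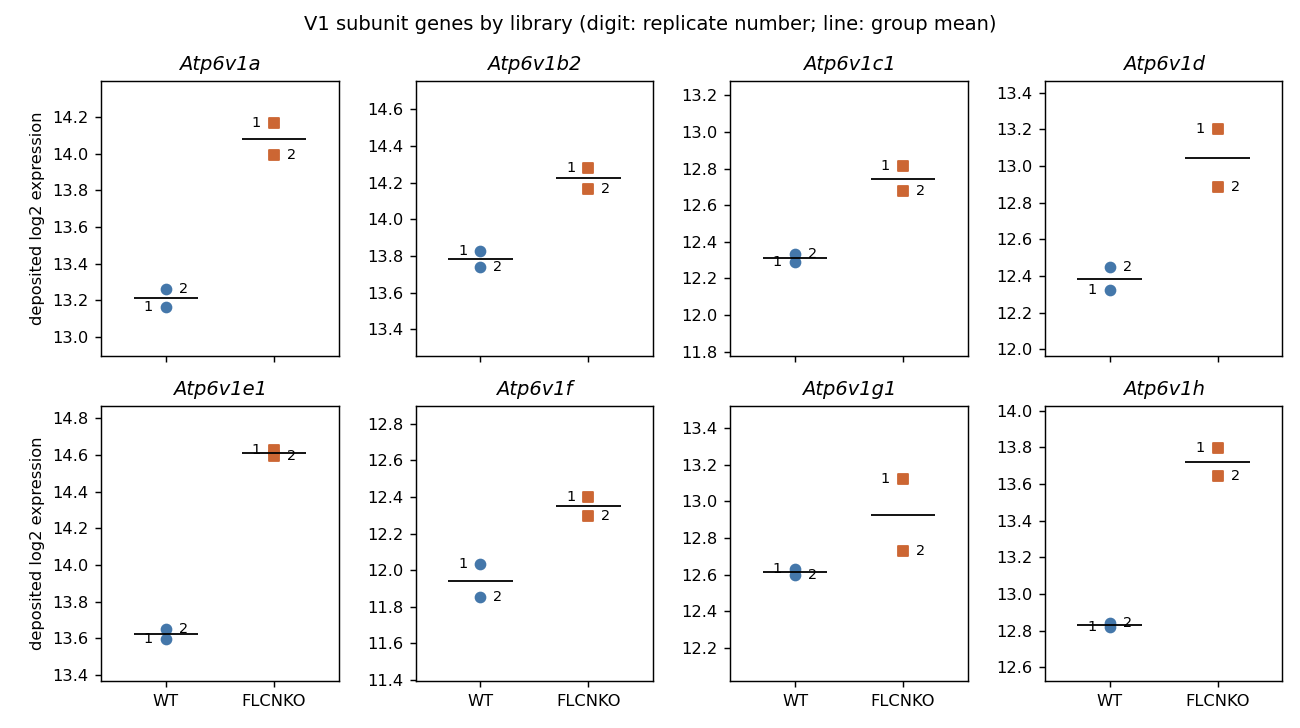
Deposited log2 expression of each V1 gene (vertical axes, which start above 0 and span the same range in every panel) in the WT (circles) and FLCNKO (squares) libraries, with replicate numbers and group means as lines. In all 8 panels both squares lie above both circles, with a gap of 0.95 for Atp6v1e1 and of 0.10 for Atp6v1g1.

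In the ring, Atp6v1a, which encodes the catalytic subunit, had log2 values of 13.16 and 13.26 in WT and of 14.17 and 13.99 in FLCNKO. The groups were separated by 0.73, several times the spread within either. Atp6v1a rose from 13.21 ± 0.069 to 14.08 ± 0.13 (SD, n = 2), by 0.87 ± 0.12 (SE; 1.83-fold; limma adjusted p = 0.0478; 95% interval from 0.57 to 1.17). The partner gene Atp6v1b2 encodes the widely expressed form of the noncatalytic B subunit, which shares each ATP site with A. Its log2 values were 13.83 and 13.74 in WT and 14.28 and 14.17 in FLCNKO, again without overlap. The Atp6v1b2 difference of 0.44 ± 0.11 (SE) did not pass (limma adjusted p = 0.105; 95% interval from 0.16 to 0.72).

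In the outer stalks, Atp6v1e1 encodes the widely expressed form of subunit E, which binds the top of the ring. Its log2 values were 13.59 and 13.65 in WT and 14.63 and 14.60 in FLCNKO, so replicates lay within 0.055 and 0.032 of each other. Atp6v1e1 rose by 0.99 ± 0.10 (SE, n = 2 per group; 1.99-fold; limma adjusted p = 0.0383; 95% interval from 0.73 to 1.25). It had the largest difference and the smallest p of the 8 members, and 3.67% of all genes had a log2 difference at least as high. The partner in the stalk is subunit G, which pairs with E in a long coiled coil. Its gene Atp6v1g1 had log2 values of 12.63 and 12.60 in WT and of 13.12 and 12.73 in FLCNKO. FLCNKO replicate 2 lay 0.10 above the higher WT library, and replicate 1 lay well above it. Atp6v1g1 had the smallest difference of the 8, 0.31 ± 0.16 (SE; limma adjusted p = 0.319; 95% interval from -0.09 to 0.71), which was 0.12 without FLCNKO replicate 1 and 0.51 without FLCNKO replicate 2. Atp6v1g1 shares 24.0% of its stretches of 31 bases with transcripts of other genes, and all of these occur in Gm13453, so its value is uncertain where the authors' counting could split reads.

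In the central shaft, Atp6v1d encodes subunit D, the axle. Its log2 values were 12.32 and 12.45 in WT and 13.20 and 12.89 in FLCNKO. The FLCNKO libraries differed by 0.31 and both lay above WT. The Atp6v1d difference was 0.66 ± 0.15 (SE, n = 2 per group; limma adjusted p = 0.0881; 95% interval from 0.29 to 1.03). Atp6v1f encodes the small subunit F, which binds D. Its log2 values of 12.03 and 11.85 in WT and of 12.40 and 12.30 in FLCNKO did not overlap. The Atp6v1f difference was 0.41 ± 0.12 (SE; limma adjusted p = 0.144; 95% interval from 0.10 to 0.72). Atp6v1f shares 18.4% of its 31-base stretches with the transcript of another gene, AC169506.3, and is uncertain in the same way as Atp6v1g1.

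At the junction of the sectors, Atp6v1h encodes subunit H, which blocks ATP splitting in V1 that has come off V0. Its log2 values were 12.82 and 12.84 in WT and 13.80 and 13.64 in FLCNKO, with WT libraries that nearly coincided. Atp6v1h rose by 0.89 ± 0.11 (SE, n = 2 per group; 1.85-fold; limma adjusted p = 0.0431; 95% interval from 0.61 to 1.17). Atp6v1c1 encodes the widely expressed form of subunit C, which leaves the complex when V1 comes off. Its log2 values were 12.29 and 12.33 in WT and 12.81 and 12.68 in FLCNKO, so the groups did not overlap. The Atp6v1c1 difference of 0.44 ± 0.11 (SE) did not pass (limma adjusted p = 0.107; 95% interval from 0.16 to 0.72). Atp6v1e1 and Atp6v1h share 0.779% and 1.3% of their annotated exon bases with a gene on the opposite strand, Slc25a18 and Rgs20, and the strand setting of the authors' counting is not stated.

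FLCNKO replicate 1 was above replicate 2 in 8 of 8 V1 genes, by 0.032 (Atp6v1e1) to 0.39 (Atp6v1g1) on the log2 scale, whereas the sign of the difference between the WT libraries varied among the genes, from -0.13 for Atp6v1d to 0.18 for Atp6v1f. Against the WT mean, the 8 genes were higher by 0.46 to 1.01 in FLCNKO replicate 1 and by 0.12 to 0.98 in replicate 2. In the same direction, muscle markers summed to a log2 level of 16.32 in FLCNKO replicate 1 and 13.40 in replicate 2 (17.45 and 14.41 in WT), and 10 brown and beige fat genes to 17.72 and 16.48 (14.44 and 13.84 in WT). The part of these in the V1 values was not tested. The plot of differences with 1 library left out shows that Atp6v1e1 moved least, between 0.96 and 1.02, and that Atp6v1g1 and Atp6v1d moved most.

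**Figure D2:**
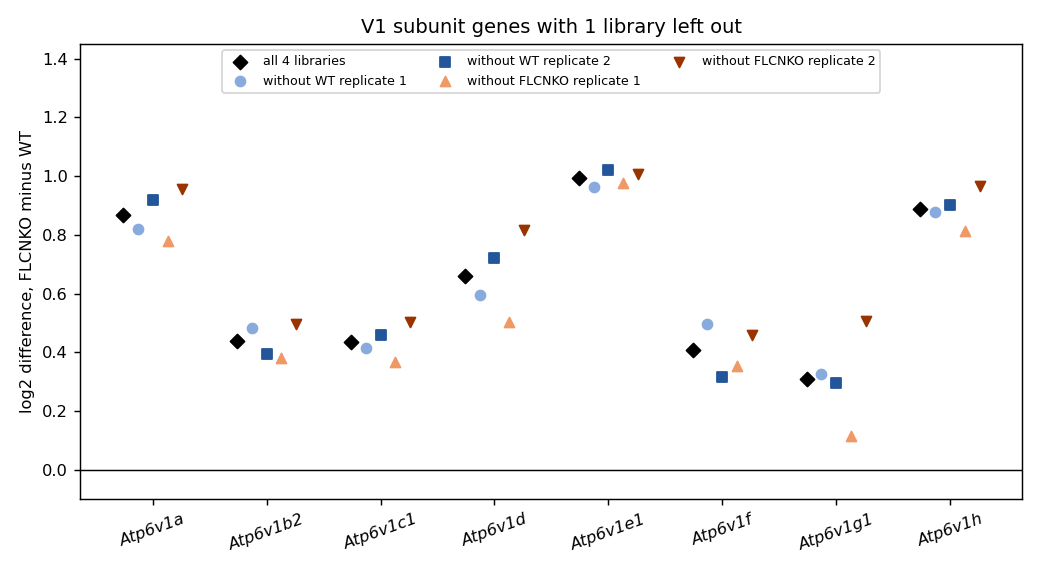
Log2 difference between FLCNKO and WT (vertical axis) for each V1 gene with all 4 libraries (diamonds) and with each library left out in turn (other symbols). Every symbol lies above 0, as it must where the groups do not overlap, and the lowest is Atp6v1g1 without FLCNKO replicate 1 at 0.12.

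To compare subunits that sit together in the complex, differences were taken within each library between partner genes, with pairs chosen after the values were known and therefore given without a test. Each difference carries a constant set by the lengths of its genes, so its sign says nothing of which gene was more abundant, and only its change between libraries is read. Atp6v1a minus Atp6v1b2 was -0.67 and -0.48 in WT and -0.11 and -0.17 in FLCNKO, higher in both FLCNKO libraries. Atp6v1e1 minus Atp6v1g1 was 0.96 and 1.05 in WT and 1.51 and 1.87 in FLCNKO. Atp6v1h minus Atp6v1c1 was 0.53 and 0.51 in WT and 0.98 and 0.97 in FLCNKO, with replicates that differed by far less than the groups. In the shaft, Atp6v1d minus Atp6v1f was 0.29 and 0.60 in WT and 0.80 and 0.59 in FLCNKO, and here the groups overlapped. Atp6v1a minus Atp6v1e1, for the catalytic and stalk genes that both rose, was -0.43 and -0.39 in WT and -0.46 and -0.60 in FLCNKO, a mean shift of -0.12.

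**Figure D3:**
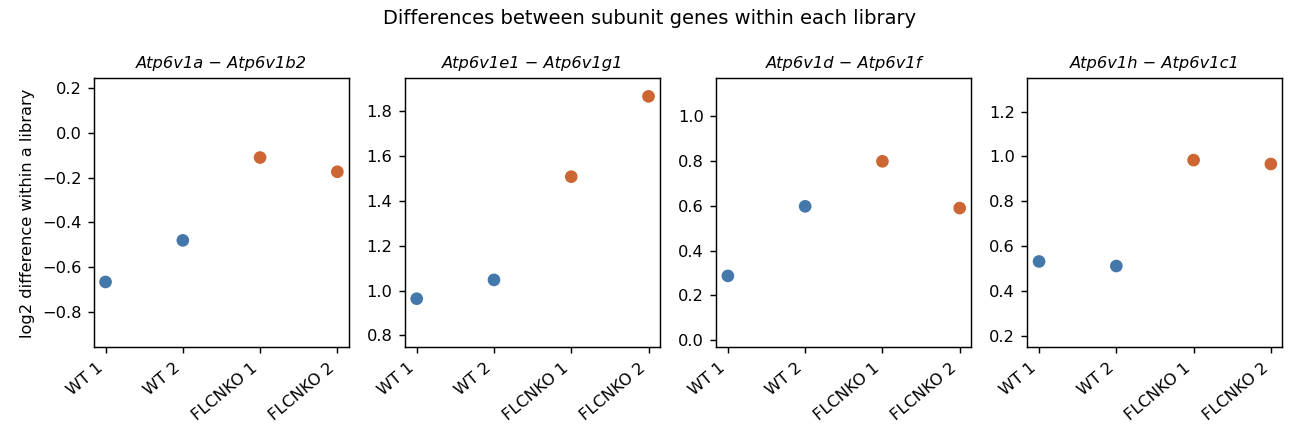
Log2 difference between partner subunit genes within each library (vertical axes of equal span), for the ring, the outer stalk, the central shaft and the junction. The FLCNKO libraries lie above both WT libraries for the ring, stalk and junction partners, and the groups overlap for Atp6v1d and Atp6v1f.

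On a scale that takes account of length (the deposited log2 value minus log2 of the longest transcript in kilobases), the WT order from the top was Atp6v1g1 (12.43 ± 0.020, SD, n = 2), Atp6v1b2 (12.29 ± 0.062), Atp6v1f (12.25 ± 0.13), Atp6v1e1 (12.07 ± 0.039), Atp6v1a (11.13 ± 0.069), Atp6v1h (10.56 ± 0.018), Atp6v1d (10.51 ± 0.091) and Atp6v1c1 (10.01 ± 0.032). In WT the neighbours Atp6v1b2 and Atp6v1f, and Atp6v1h and Atp6v1d, lay within their spread. In FLCNKO Atp6v1e1 was first at 13.06 ± 0.022, followed by Atp6v1g1 (12.74 ± 0.28), Atp6v1b2 (12.73 ± 0.080) and Atp6v1f (12.66 ± 0.074), which lay within the spread of Atp6v1g1. The other 4 genes kept their places. The transcript lengths come from GENCODE annotation, and which transcripts this tissue makes was not measured.

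Promoter sequences were matched for 4 of the 8 members, Atp6v1a, Atp6v1d, Atp6v1e1 and Atp6v1f, and not for Atp6v1b2, Atp6v1c1, Atp6v1g1 and Atp6v1h. The windows of the 2 called members among them are shown because both genes rose and because MiT/TFE factors are known to bind CACGTG elements, above all when a T precedes. They are from RefSeq (GRCm38.p6), run 5′ to 3′ on the gene's strand from -200 to -101 relative to the annotated start, and hold no annotated exon. For Atp6v1a, however, annotated exon bases of the gene itself also lie upstream of the stretch shown, at -250. Capitals mark matches on either strand to the E-box CACGTG, to its extended form TCACGTG, to the CCAAT box and to the GC box GGGCGG, in a search of these 4 motifs.
Atp6v1a, chr16:44139360-44139459, minus strand: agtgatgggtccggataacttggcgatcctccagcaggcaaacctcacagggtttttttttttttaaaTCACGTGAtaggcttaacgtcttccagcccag
Atp6v1e1, chr6:120822799-120822898, minus strand: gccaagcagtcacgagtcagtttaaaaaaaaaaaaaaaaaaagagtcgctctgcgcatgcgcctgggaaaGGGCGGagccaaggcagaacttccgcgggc

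In the 250 bases before the start, CACGTG (the E-box) occurred in 1 of the 4 members, Atp6v1a, at -131 to -126, where TCACGTG matched on both strands, at -132 to -126 and -131 to -125, overlapping CACGTG. Of all 32851 promoters, 6.02% held CACGTG and 3.13% held TCACGTG in a window of that length. CCAAT occurred in Atp6v1e1 alone among the 4 (33.8% of all promoters) and GGGCGG, the GC box, in Atp6v1d, Atp6v1e1 and Atp6v1f (32.7% of all promoters). Annotated exons filled 65 to 95 of the 250 bases, those of Eif2s1 for Atp6v1d and of the gene itself for the others. The CCAAT match of Atp6v1e1 (-86 to -82) and both GC boxes of Atp6v1f (-31 to -26 and -14 to -9) lay in exon bases. These matches describe letters in a window only.

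Of 5 other V1 isoform genes, which are known from kidney, lung, testis or nerve, 2 were measured. Atp6v1g2, the neuronal form of G, had log2 values of 8.21 and 8.40 in WT and of 8.45 and 8.80 in FLCNKO, a difference of 0.32 ± 0.24 (SE, n = 2 per group; limma adjusted p = 0.484) that was 0.15 without FLCNKO replicate 2 and 0.50 without FLCNKO replicate 1. Atp6v1c2, a tissue-restricted form of C, had values of 5.02 and 6.01 in WT and of 6.60 and 5.85 in FLCNKO, which overlapped. Both had low values. Atp6v1b1, Atp6v1e2 and Atp6v1g3 were not analysed here.

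The membrane sector of the same pump was compared through 11 measured V0 and accessory genes. limma called 0 of them, and at an unadjusted p under 0.05, 4 were higher and 1 lower (12.1% and 10.3% of all genes). Their median log2 difference was 0.32 (0.18 without FLCNKO replicate 2), against 0.55 for the 8 V1 genes, and 6 had both FLCNKO values above both WT values (29.2% of all genes), 2 had both below (25.4%) and 3 overlapped. The V1 median minus the V0 median was 0.058 and 0.25 in WT and 0.54 and 0.41 in FLCNKO. These values are not per length, so the sign says nothing of which sector was more abundant. The V0 median was the value of Atp6ap2 in both WT libraries and FLCNKO replicate 1, and of Atp6v0a2 in FLCNKO replicate 2. The difference between the sectors was not tested.

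Among the V0 genes, the isoforms of subunit a, which directs the pump to its membrane, had differences of both signs, none of them called. Atp6v0a2, a form of the Golgi and endosomes, had log2 values of 12.40 and 12.38 in WT and of 12.82 and 12.85 in FLCNKO (0.45 ± 0.10, SE, n = 2 per group; limma adjusted p = 0.0898). Atp6v0a1 had a difference of 0.41 ± 0.14 (adjusted p = 0.187), which was 0.25 without FLCNKO replicate 2. Tcirg1, which encodes the form of osteoclasts and macrophages, had values of 11.66 and 11.46 in WT and of 11.15 and 11.23 in FLCNKO, a difference of -0.37 ± 0.13 (limma adjusted p = 0.186). Atp6v0d2, the form of subunit d known from the same cells, was low, at 7.07 and 7.49 in WT and 6.92 and 7.01 in FLCNKO.

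The widely expressed d form, Atp6v0d1, had a log2 difference of 0.40 ± 0.14 (SE, n = 2 per group; limma adjusted p = 0.178). For the proteolipid ring genes Atp6v0b and Atp6v0c the differences were 0.30 ± 0.12 and 0.32 ± 0.18, the latter 0.099 without FLCNKO replicate 2 and 0.55 without FLCNKO replicate 1. Atp6ap2, the prorenin receptor, had a difference of 0.33 ± 0.12, whereas Atp6ap1 (0.08 ± 0.11) and Atp6v0e (0.09 ± 0.11) lay near 0. Atp6v0e2 was 10.54 and 10.56 in WT but 10.46 and 11.61 in FLCNKO, so its difference of 0.48 ± 0.38 rested on FLCNKO replicate 2 and was -0.09 without it. In the plot of pump genes, every V0 point lies below those of the 3 called V1 genes, and most V0 intervals overlap those of the other V1 genes.

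**Figure D4:**
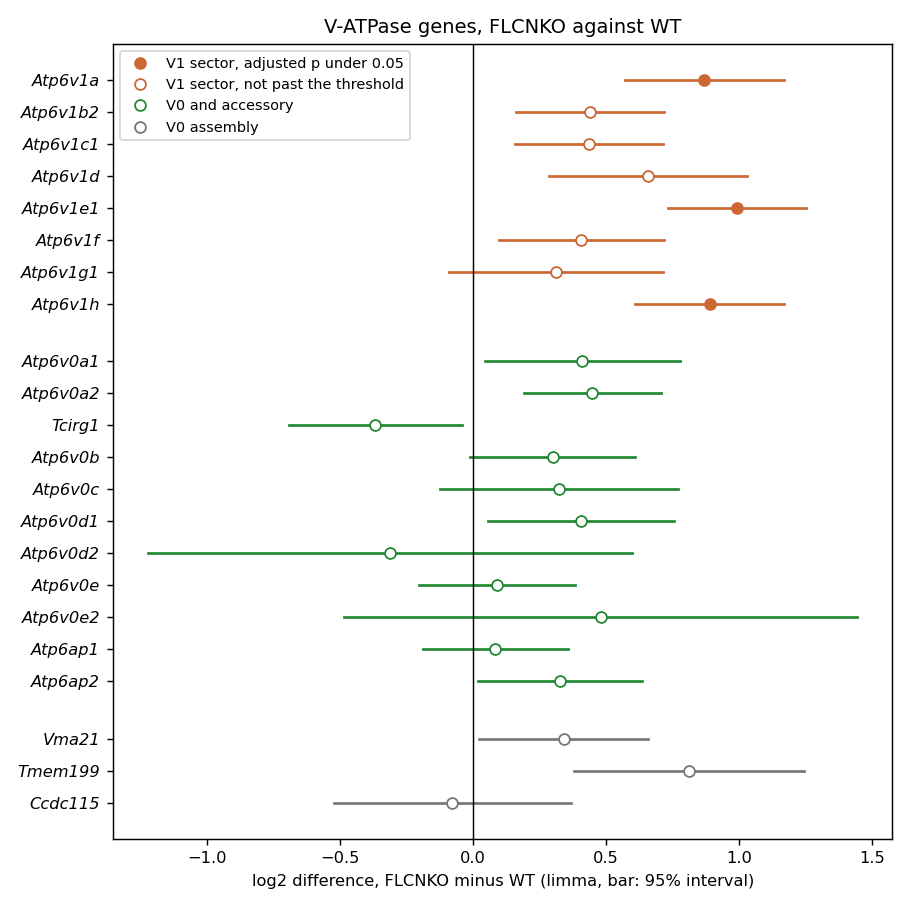
Log2 difference between FLCNKO and WT (horizontal axis) with 95% intervals from limma for V1, V0 and accessory, and V0 assembly genes, filled where the adjusted p was under 0.05. The filled points are Atp6v1a (0.87), Atp6v1e1 (0.99) and Atp6v1h (0.89).

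Genes that build or regulate the pump also had differences of both signs. Of 3 factors that assemble V0 in the endoplasmic reticulum limma called 0. At an unadjusted p under 0.05, 2 were higher, as were 12.1% of all genes. Tmem199 had a difference of 0.81 ± 0.17 (SE, n = 2 per group, limma adjusted p = 0.0806), Vma21 of 0.34 ± 0.12 (adjusted p = 0.199) and Ccdc115 of -0.08 ± 0.17 (adjusted p = 0.832). Of 7 measured genes of V1-V0 reassembly and of the TLDc family, whose proteins bind V1, 1 rose and 0 fell (0.98% and 0.614% of all genes). The riser was Tbc1d24, a TLDc gene, with log2 values of 10.10 and 10.21 in WT and of 11.21 and 11.35 in FLCNKO. Tbc1d24 rose 2.18-fold, by 1.12 ± 0.13 (SE; limma adjusted p = 0.0416). Wdr7, a partner in the rabconnectin complex that helps V1 return to V0, had a difference of 0.63 ± 0.11 (adjusted p = 0.0624), and its partner Dmxl1 one of 0.22 ± 0.11 (adjusted p = 0.307). The TLDc gene Oxr1 had a difference of -0.13 ± 0.10 (adjusted p = 0.523), and the median of the 7 genes was -0.03.

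At the lysosomal surface, 1 of 12 measured Ragulator, Rag and folliculin genes was called, Rragc, which encodes a Rag GTPase that folliculin acts on. Rragc had log2 values of 13.40 and 13.47 in WT and of 14.35 and 14.44 in FLCNKO, and rose by 0.96 ± 0.10 (SE, n = 2 per group; limma adjusted p = 0.0404), a size near that of Atp6v1e1. Lamtor1, the anchor of Ragulator, had a difference of 0.65 ± 0.14 (adjusted p = 0.0824), Fnip1 one of 0.79 ± 0.19 (adjusted p = 0.103) and Rragd, which varied most between replicates, one of 3.95 ± 0.72 (adjusted p = 0.0658). The median of the 12 was 0.38, and 9 had both FLCNKO values above both WT values (29.2% of all genes did, and 0.98% were called higher).

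Of the 4 MiT/TFE factor genes limma called 0 (1 lower at an unadjusted p under 0.05, against 10.3% of all genes). Tfeb had log2 values of 10.32 and 10.31 in WT and of 9.55 and 10.02 in FLCNKO (-0.53 ± 0.20, SE, n = 2 per group; limma adjusted p = 0.208); without FLCNKO replicate 1 its difference was -0.29. Differences were -0.15 ± 0.12 for Tfe3, 0.01 ± 0.12 for Mitf and 0.25 ± 0.49 for Tfec, with adjusted p-values of 0.531, 0.985 and 0.808. Mitf and Tfec lay on either side of 0 when single libraries were left out, and Tfe3 ranged from -0.24 to -0.052. Of 26 lysosomal hydrolase and membrane protein genes, 1 rose, the protease gene Ctsz, from 14.10 and 13.81 in WT to 15.61 and 15.55 in FLCNKO (1.62 ± 0.14, SE; limma adjusted p = 0.0336). Lamp1, an abundant lysosomal membrane protein gene, had a difference of 0.59 ± 0.13 (adjusted p = 0.0825) and the tetraspanin gene Cd63 one of 0.85 ± 0.15 (adjusted p = 0.0647), while the protease gene Ctsh had a difference of -0.95 ± 0.15 (adjusted p = 0.055), and was called lower with a filter on low means (adjusted p = 0.0489), robust moderation (0.0466) and a replicate block (0.0275); its adjusted p was above 0.05 in the other alternatives. The median of the 26 was 0.21, with 17 higher and 1 lower without overlap (29.2% and 25.4% of all genes, and 0.98% were called higher).

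**Figure D5:**
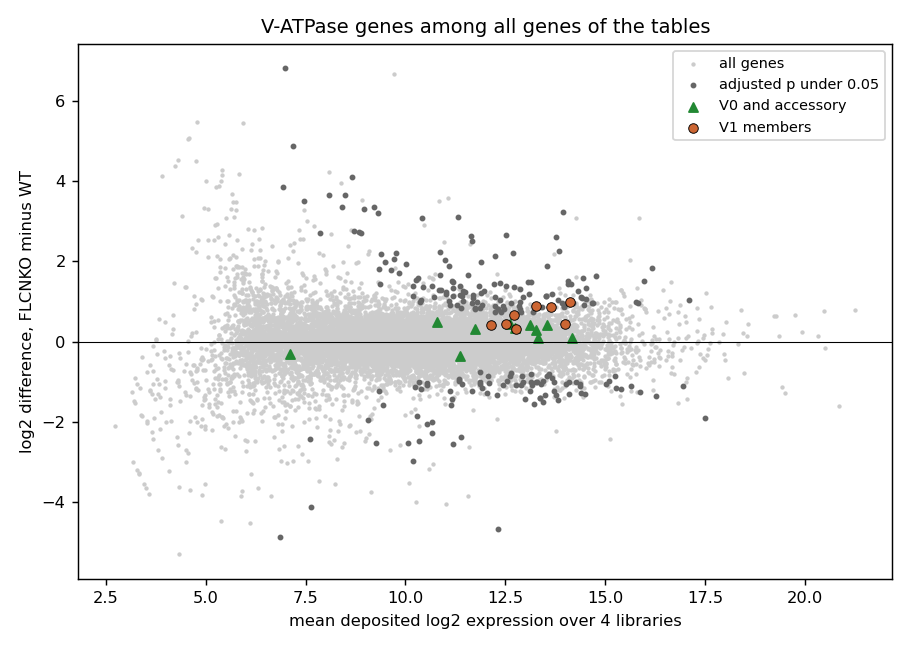
Log2 difference between FLCNKO and WT (vertical axis) against the mean deposited log2 expression over 4 libraries (horizontal axis) for all 13677 genes, with called genes in dark grey. The V1 genes (circles) have means between 12.15 and 14.12 and differences between 0.31 and 0.99, and most V0 genes (triangles) lie among or below them.

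The tissue holds several cell types, and fewer cells of a type cannot be told apart from less RNA per cell. Macrophages, which also make much V-ATPase, were followed by 12 markers: 11 of 12 had both FLCNKO values below both WT values and 2 were called lower (0.614% of all genes were called lower and 25.4% were below without overlap). The summed macrophage level was 17.55 and 17.28 in WT and 16.74 and 16.44 in FLCNKO, on the log2 scale. Fibroblast and matrix markers were below without overlap in 10 of 10, with 4 called lower and summed levels of 20.17 and 20.01 in WT and of 19.12 and 18.97 in FLCNKO. Endothelial markers overlapped in 7 of 8, and adipocyte markers in 7 of 10 (the other 3, Adipoq, Cfd and Retn, were lower in both FLCNKO libraries), with summed levels of 21.78 and 21.74 in WT and of 21.51 and 21.47 in FLCNKO. None of the macrophage, fibroblast, endothelial or adipocyte markers was at the bottom of the scale. By contrast, of 10 brown and beige fat genes, 5 were called higher and 8 were above without overlap (0.98% and 29.2% of all genes). The part of cell composition in the V1 differences was not tested.

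Outside the pump, the 5 genes whose 4 library values, centred on their own mean, lay nearest to the mean profile of the V1 genes were Ube2f, a ubiquitin-like conjugating enzyme gene, Vdac1, the outer mitochondrial membrane channel gene, the mitochondrial enzyme gene Clybl, Desi1, and Uqcrq, a subunit gene of respiratory complex III. Their root mean square distances were 0.012 to 0.018 on the log2 scale, small because these genes were picked for it, and those of the members were 0.067 (Atp6v1d) to 0.19 (Atp6v1e1). As an instance, and with a difference that the choice itself fixes, Vdac1 had log2 values of 14.19 and 14.20 in WT and of 14.93 and 14.72 in FLCNKO. Likeness over 4 libraries is a weak criterion, and 1460 of the 11293 genes considered lay within the distance of the farthest member.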

How the data were processed

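RNA sequencing of inguinal white fat was deposited by the authors as 4 tables, 1 for each library (2 WT, 2 FLCNKO), of log2 values over 13677 Ensembl genes. Per the submitters' processing notes, STAR and limma were used with mm9. How reads were counted, with which annotation and strand setting, is not given in the sources used here. Every library had nearly the same distribution of deposited log2 values (medians 10.7636 to 10.7645, highest value 21.66), which hides a shift shared by most genes. The log base is taken from limma's usual scale, and depth is unknown.

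Symbols were matched for 13592 genes by Ensembl identifier. Groups came from titles. The test was limma 3.58.1 (R 4.3.3) with group as the only term, a trend in the prior variance (2 residual degrees of freedom) and two-sided p-values adjusted by Benjamini-Hochberg over all 13677 genes, threshold 0.05. The fit was also run on simulated data to check the code. That run set no limit on false calls, and no result here rests on it. Transcript lengths, shared 31-base stretches and exon overlaps came from GENCODE M21. Members and lists were chosen with earlier results of these data known. Named were the 8 members, the V0 genes, up to 4 genes of each other V-ATPase or lysosomal list with the smallest p and every called one of these lists, Flcn and the 5 genes nearest in profile. Cell type lists are given by counts. Adipoq, Cfd, Retn and the genes that share sequence or exons with members were added after the values were seen. Alternatives were a filter, 3 renormalizations, variance moderation, a replicate block and leaving out each library. Protein sequences were not used here.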

Additional observations from a re-analysis of the deposited data

How the results depend on the processing

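Atp6v1a, Atp6v1e1 and Atp6v1h were the called members under the filter on a mean of at least 8, repeated quantile normalization and both centrings. They were also the called members with robust moderation and the replicate block. With 1 library left out their differences ranged from 0.78 to 1.02, and the renormalizations left them within that range. The filter, the variance settings and the block cannot change a difference here, so they do not bear on its size. Without the variance trend limma called 0 genes higher, 0 lower and 0 members. Leaving out each library gave 0 to 0 calls for genes higher, genes lower and members. These fits leave a group of 1, so they cannot decide how stable the calls are, and only their effect sizes are read. The replicate block fit also has 1 residual degree of freedom. Over all alternatives adjusted p ranged from 0.0275 to 0.308 for Atp6v1e1, from 0.0322 to 0.336 for Atp6v1h and from 0.0363 to 0.343 for Atp6v1a. Genes called lower numbered 84, against 138 with the filter and 143 with robust moderation. The median of the V1 members ranged from 0.44 to 0.66 with 1 library left out, and that of the V0 genes from 0.18 to 0.34. Values that changed sign with 1 library left out ranged from -0.17 to 0.063 for Flcn, -0.023 to 0.034 for Mitf, -0.19 to 0.69 for Tfec, -0.0049 to 0.18 for Atp6v0e, -0.092 to 1.05 for Atp6v0e2 and -0.25 to 0.094 for Ccdc115. Among other uncalled genes, Atp6v1c2 ranged from 0.22 to 1.20, Atp6v0d2 from -0.52 to -0.10, Atp6ap1 from 0.036 to 0.13 and Oxr1 was -0.083 without WT replicate 2. The cause of these changes was not tested.

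The titles share replicate numbers, but nothing in the labels says that they pair libraries. The correlation over genes of the replicate 1 minus 2 differences in WT and FLCNKO was 0.363, over 1 comparison of 2 pairs. With a replicate block, 401 genes were called higher and 441 lower, and 3 members were called, as without it. Wdr7, Rragd, Ctsh and Cd63, among the named pathway genes, passed with the block. Depth cannot be read from the deposited values, so what it limits is unknown.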
